A study of Mus musculus with 18 samples.

Results

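The genes that copy DNA and divide cells were followed in mouse hearts under pressure overload, before and after an activated form of the kinase Akt1 was switched on. A list of 36 genes of S phase and mitosis was used, and all probe sets whose only gene symbol was on that list were taken, whatever their signal. Of the 36 genes, 35 had at least 1 such probe set, among 18193 genes in all. They had 88 probe sets, 70 on chip 430A and 18 on chip 430B, among 35041 probe sets with a single symbol. Ccnb1, which encodes cyclin B1, had no probe set under that symbol and is not analysed here.

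RNA came from 9 heart samples of male Tet-myrAkt1/αMHC-tTA mice, in 3 groups of 3. The groups were hearts taken before AAC (label age 8 weeks), hearts taken 4 weeks after AAC (12 weeks), and hearts taken 6 weeks after AAC with Akt on (also labelled 12 weeks). AAC is the operation that produced the pressure overload. For the last group the titles give 3 weeks of Akt activation, while the descriptions and the design text give 2 weeks. The mice of all 3 groups carried both transgenes, including the controls. Tet-myrAkt1 is a membrane-targeted, active Akt1 under a tetracycline-controlled promoter, and αMHC-tTA drives it in heart muscle cells. No group had 6 weeks of overload without Akt, so Akt activation and the further time after AAC cannot be told apart. The labels do not say whether a sample is 1 animal or a pool, so the p-values measure the spread between these samples. The sources used here do not say whether the atria were included.

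Before a cell divides, the MCM helicase is loaded onto DNA and then opened for copying, with PCNA as the clamp that holds the polymerases and ribonucleotide reductase as the source of nucleotides. Cyclin A2, the B cyclins and the kinase CDK1 then drive entry into mitosis, the chromosomal passenger complex and spindle proteins separate the chromosomes, and the anaphase-promoting complex destroys the cyclins. Most heart muscle cells of adult mice do not divide, while fibroblasts, endothelial cells and leukocytes of the heart can. In RNA of whole hearts, fewer cells of a type and less RNA per cell cannot be told apart.

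Much of this gene set is known to be controlled at its promoters through 3 short elements, so the promoters are described first. Those printed were chosen with the expression values known. The cell cycle homology region (CHR, TTTGAA) and the CCAAT box are known from genes of G2 and mitosis, and E2F elements (here TTTCCCGC or TTTGGCGC) from genes of S phase. Each element was searched on both strands from 250 bases before to 50 bases after the start of transcription, in RefSeq promoters of build GRCm38.p6, where 30 of the 36 genes had an entry. The CHR letters were present for 15 of 30 genes, or 50%, against 20.2% of the 27025 genes with a promoter. CCAAT was present for 25 of 30, or 83.3%, against 41.1% of all genes. An E2F element was present for 4 of 30, or 13.3%, against 1.8% of all genes. These 4 were Mcm3, Mcm5, Mcm6 and Mcm7, so the E2F strings searched lay in the MCM group. Other forms of E2F element were not searched, and the Cdk1 promoter printed below holds the similar string tttcgcgc. CHR lay in 3 of 3 genes of the anaphase-promoting complex and mitotic exit, 3 of 4 mitotic kinases and checkpoint genes and 4 of 5 chromosome genes. It also lay in 2 of 3 spindle genes, 2 of 5 cyclin and CDK1 genes, 1 of 5 MCM genes and 0 of 4 genes of DNA synthesis. CCAAT was not limited to the mitotic genes, with 5 of 5 MCM genes and 3 of 4 genes of DNA synthesis beside 4 of 5 cyclin and CDK1 genes. No matches of different elements shared bases in the promoters printed. Promoters of 7 genes are printed from 250 bases before the start up to it, 5 from mitotic genes that were highest with Akt on and, for contrast, 2 from MCM genes. CHR, CCAAT and E2F matches are in capitals, on the strand of the gene, so that ATTGG is CCAAT and GCGCCAAA is TTTGGCGC on the other strand.
Cdk1, chr10:69352913-69353162, minus strand: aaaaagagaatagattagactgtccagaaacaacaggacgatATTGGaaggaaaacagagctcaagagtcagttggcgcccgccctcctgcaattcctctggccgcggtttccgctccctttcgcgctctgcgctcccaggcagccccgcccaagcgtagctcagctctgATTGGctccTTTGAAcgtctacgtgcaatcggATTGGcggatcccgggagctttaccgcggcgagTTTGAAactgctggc
Ccnb2, chr9:70421555-70421804, minus strand: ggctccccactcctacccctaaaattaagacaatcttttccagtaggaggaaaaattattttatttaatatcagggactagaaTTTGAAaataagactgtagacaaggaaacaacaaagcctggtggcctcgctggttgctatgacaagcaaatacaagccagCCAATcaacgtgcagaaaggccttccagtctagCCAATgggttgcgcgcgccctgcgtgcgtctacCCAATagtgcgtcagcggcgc
Cdc20, chr4:118437344-118437593, minus strand: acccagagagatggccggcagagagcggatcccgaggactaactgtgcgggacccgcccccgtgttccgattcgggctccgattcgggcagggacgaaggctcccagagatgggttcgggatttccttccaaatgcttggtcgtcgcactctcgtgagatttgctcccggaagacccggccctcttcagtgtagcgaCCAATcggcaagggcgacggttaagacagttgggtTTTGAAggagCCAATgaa
Cdca8, chr4:124936918-124937167, minus strand: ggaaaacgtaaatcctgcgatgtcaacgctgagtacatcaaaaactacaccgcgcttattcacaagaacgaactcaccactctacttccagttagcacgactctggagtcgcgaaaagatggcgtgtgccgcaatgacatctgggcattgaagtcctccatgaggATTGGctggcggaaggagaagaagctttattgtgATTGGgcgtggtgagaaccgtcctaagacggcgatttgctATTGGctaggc
Cks2, chr13:51644982-51645231, plus strand: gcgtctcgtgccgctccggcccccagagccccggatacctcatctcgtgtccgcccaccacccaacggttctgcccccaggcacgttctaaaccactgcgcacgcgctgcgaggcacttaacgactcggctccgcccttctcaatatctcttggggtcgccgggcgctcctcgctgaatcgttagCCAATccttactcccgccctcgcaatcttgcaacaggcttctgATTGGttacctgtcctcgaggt
Mcm5, chr8:75109259-75109508, plus strand: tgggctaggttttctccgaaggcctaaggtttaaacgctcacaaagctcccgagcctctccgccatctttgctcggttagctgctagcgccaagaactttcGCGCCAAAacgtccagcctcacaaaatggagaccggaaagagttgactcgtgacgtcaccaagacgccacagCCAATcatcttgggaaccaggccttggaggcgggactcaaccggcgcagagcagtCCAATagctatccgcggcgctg
Mcm6, chr1:128359706-128359955, minus strand: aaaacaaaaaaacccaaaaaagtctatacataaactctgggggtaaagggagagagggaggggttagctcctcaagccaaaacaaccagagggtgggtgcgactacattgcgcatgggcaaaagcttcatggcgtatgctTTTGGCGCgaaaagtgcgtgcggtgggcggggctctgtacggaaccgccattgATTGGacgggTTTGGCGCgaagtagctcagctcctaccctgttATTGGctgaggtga

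In the Cdk1 promoter CHR began at bases -71 and -15 from the start, and CCAAT matches began at -208, -80 and -48. Ccnb2 had CCAAT at -87, -54 and -21 and CHR at -167 and, past the printed stretch, at 5. Cdc20 had CHR at -18 between CCAAT matches at -53 and -8. Cdca8 had CCAAT at -85, -51 and -11, and its CHR lay past the printed stretch, at 14. Cks2 had CCAAT at -65 and -22 and no CHR letters in the window. Mcm5 had the E2F letters at -149, and Mcm6 had them at -110 and -47. A match of letters is a description and does not show that a factor binds there.

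The values are MAS5 signals, 1 number per probe set and array on a linear scale, and signals of different probe sets cannot be set against each other. Differences were computed on log2(signal + 32), which understates the change of low probe sets. The main test was run on probe sets whose mean signal was among the top 60% of their chip, and called a difference where the adjusted p was under 0.05 (limma, Benjamini-Hochberg over both chips). Of the 88 probe sets, 35 of 23 genes passed this filter. The other 53 lay below it, and 12 genes had probe sets only there: Tyms, E2f1, Ccnb2, Chek1, Aurkb, Bub1, Bub1b, Birc5, Mki67, Kif11, Kif20a and Ube2c. The filter stood at a mean signal of 127 on chip 430A and 47.3 on chip 430B. The nearest probe sets inside were Mcm3 (131) on 430A and Cenpa (52.2) on 430B, and the nearest outside were Ube2c (126) and Cdca8 (43.3). A fit with no filter, over 35041 probe sets, gave a test for every member and was listed as an alternative.

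Facts of all arrays bear on these low signals. Akt1 probe set 1425711_a_at was at 383 to 708 before AAC, 571 to 917 at 4 weeks and 2614 to 6535 with Akt on, a rise against 4 weeks of 2.36 (adjusted p = 0.00277) that fits the label. Probe set 1416657_at of Akt1 did not show it (928 to 1587 at 4 weeks and 1201 to 1438 with Akt on). Heart muscle markers were high in all 9 hearts (Myh6 17245 to 26098). Atrial markers differed widely within each group: their summed signal was 51663 to 93932 in 4 hearts (before AAC replicates 2 and 3, 4-week replicate 1 and Akt-on replicate 1) and 6434 to 16801 in the other 5. The 3' to 5' signal ratio of the Gapdh control on chip 430A, a measure of RNA quality, was 1.07 to 1.32 before AAC, 0.828 to 0.888 at 4 weeks and 0.809 to 0.93 with Akt on. The ratio separated the hearts before AAC from both later groups (exact two-sided permutation p = 0.1 for each, the smallest that 3 against 3 hearts allow). The part of atrial content and of RNA quality in the differences below was not tested.

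No detection calls were used, so a background level was taken from genes of other organs, such as milk, lens, sperm and pituitary genes, which are not known as heart genes. On chip 430A the 95th percentile of their 133 probe sets lay between 186 and 333 in the 9 hearts. Only 5 of the 88 cell cycle probe sets exceeded this percentile of their chip in all 9 hearts, and 59 exceeded it in none. All 3 hearts of a group exceeded it for 7 probe sets before AAC, 9 at 4 weeks and 11 with Akt on. With the 75th percentile instead, 17 exceeded it in all 9 hearts and 35 in none, and the counts by group were 22, 21 and 27. By the stricter measure 59 of 88 probe sets thus lay within the signals of genes of other organs in every heart. These counts were not made over all probe sets, so they do not show that low signal is particular to the cell cycle genes. The median signal of all probe sets on chip 430A was itself only 174 to 207 in the 9 hearts.

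**Figure D1:**
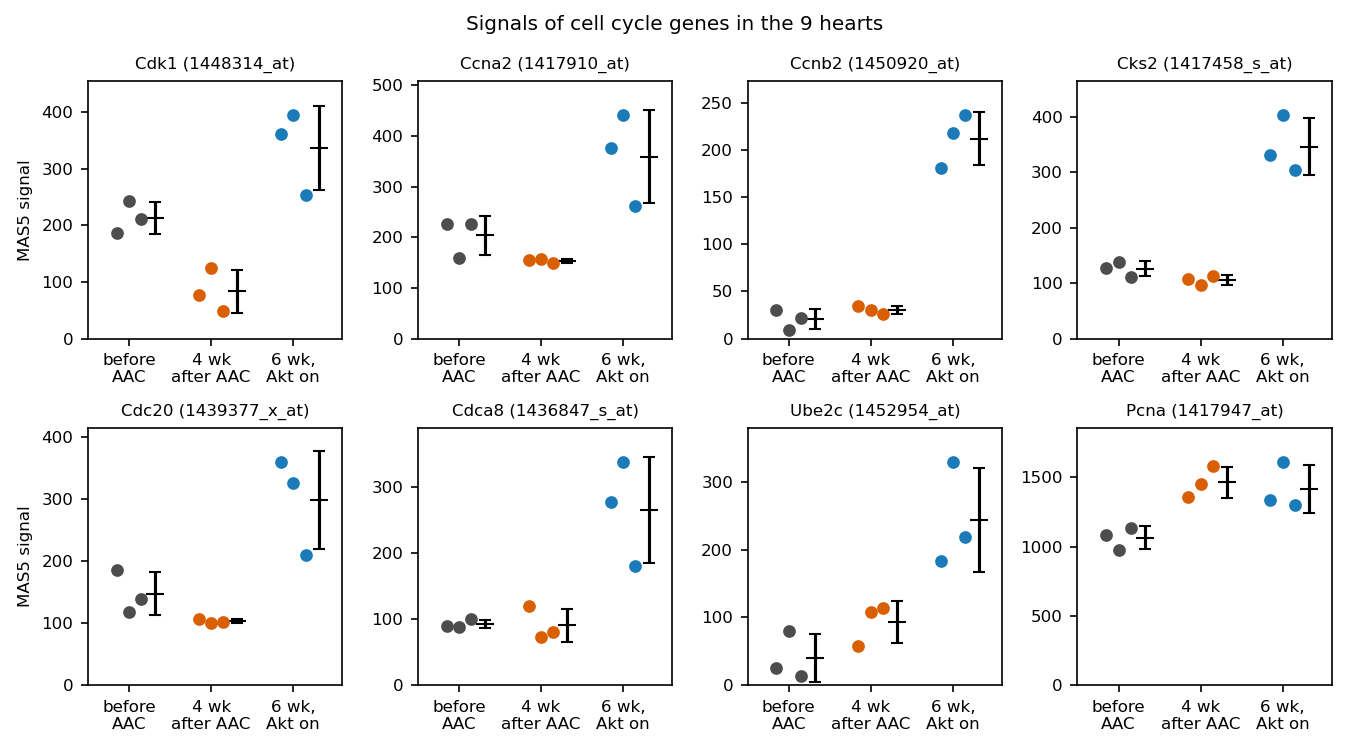
MAS5 signal (linear axis from 0) of 8 probe sets in the 9 hearts, by group; points are hearts, the dash and bar beside them the mean and SD of the 3 hearts. Ccnb2 and Ube2c lie below the filter on signal. For each gene the probe set with the largest difference, Akt on minus before AAC, is shown, a choice that favours high Akt-on hearts. In 7 panels the Akt-on hearts all lie above the other 6, while Pcna is as high at 4 weeks (1356 to 1584) as with Akt on (1302 to 1615). Other probe sets of Cdc20 and Cdca8, given in the text, do not all show this order.

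At 4 weeks after AAC, Cdk1 was the 1 member called lower, and no member was called higher. Cdk1 encodes the kinase that starts mitosis. Its signal was 187, 244 and 211 before AAC and 76.5, 124 and 49.1 at 4 weeks. None of these hearts exceeded the 95th percentile of the genes of other organs. The 75th was exceeded by 3 hearts before AAC and 1 at 4 weeks. The groups did not overlap, and the difference was -1.14 (SE 0.25, adjusted p = 0.0265, n = 3 against 3). Of the 35 tested probe sets this was the 1 called lower and 0 were called higher, against 2.00% of all 21852 called lower and 3.59% called higher. Cdk1's call ended with no filter (adjusted p = 0.0532), and when any heart before AAC, or 4-week replicate 1 or 3, was left out (adjusted p up to 0.0937), while its difference stayed between -1.38 and -0.91.

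The other members leaned lower at 4 weeks without passing the test. With no filter 0 of 88 were called, against 1.27% of all called higher and 0.668% called lower. Of the 88, 61 had a negative difference, against 55.4% of all, and in 27 of them (20 genes) all 3 hearts at 4 weeks lay below all 3 before AAC, against 15.3% of all probe sets. Pcna was the 1 member with hearts that did not overlap in the other direction, against 11.2% of all and 1.34% of genes of other organs. The median difference was -0.28 over the 35 past the filter (all probe sets -0.02) and -0.22 over all 88 (all -0.04). The genes of other organs moved the same way: 122 of their 149 probe sets had a negative difference, 26.8% did not overlap and lay lower, and their median was -0.25. The shift at 4 weeks was thus about as large in the list of genes of other organs as in the cell cycle genes. In that list the median was -0.21 below the filter and -0.35 past it, while all probe sets below the filter had -0.08. The part of such a shift in the members' values was not tested.

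**Figure D2:**
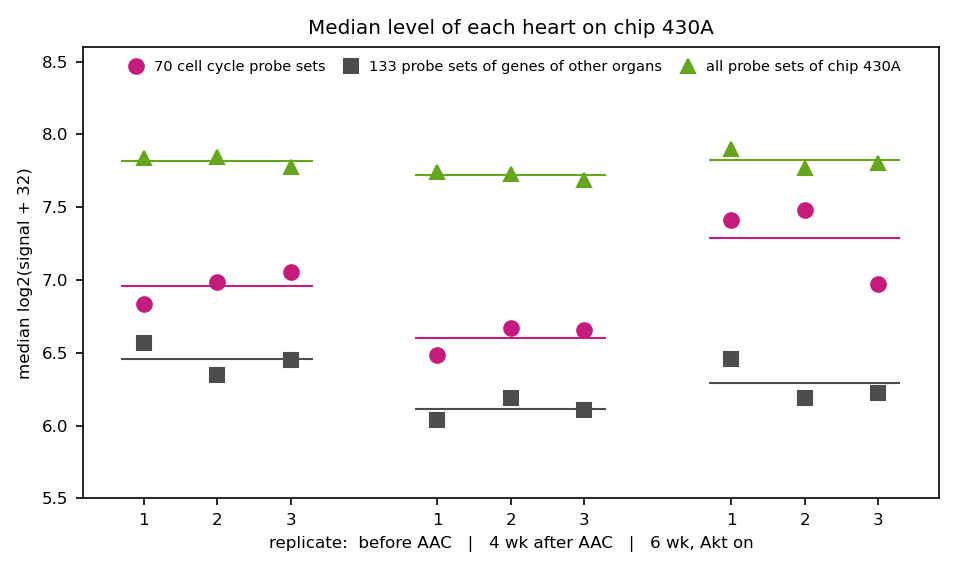
Median log2(signal + 32) of each heart on chip 430A for the 70 cell cycle probe sets, the 133 probe sets of genes of other organs and all probe sets; short lines are the means of the 3 hearts. Both lists have their lowest mean at 4 weeks, and with Akt on the cell cycle median of replicates 1 and 2 lies above that of every other heart.

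By heart, the median signal of the 70 probe sets on chip 430A was 82, 95 and 101 before AAC, 57.7, 69.8 and 69 at 4 weeks, and 138, 147 and 93.8 with Akt on. The genes of other organs had 62.9, 49.3 and 55.4, then 33.7, 41.1 and 36.9, then 55.9, 41 and 42.6. By the mean of 3 hearts both lists were lowest at 4 weeks. With Akt on, the second list lay between its levels in the other groups, while the cell cycle median in replicates 1 and 2 exceeded that of all 6 other hearts. Akt-on replicate 3 was the lowest of its group in 53 of 88 probe sets, although Akt1 probe set 1425711_a_at was highest there (6535).

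With Akt on at 6 weeks, cyclin A2, CDK1 and its partner Cks2, Cdca8 and Cdc20 were higher than at 4 weeks, by 1.75 to 3.27 times on the signal + 32 scale. These genes act in G2 and mitosis, and cyclin A2, which also partners CDK2, is not limited to them. Of the 35 tested probe sets, 6 of 5 genes rose and 0 fell, against 1.41% of all probe sets called higher and 1.89% called lower. With no filter 7 of 88 rose, now with Ccnb2 among them, and 0 fell, against 0.565% and 0.696% of all. The median difference was 0.55 over the 35 (all probe sets 0.03) and 0.43 over the 88 (all 0.06), and 77 of 88 were positive, against 57.6% of all. Genes of other organs had a median of 0.21, with 124 of 149 positive and 0 called with no filter. A positive sign in this comparison was thus common in that list too, in 83% of its probe sets below the filter and 83.8% past it. Of all probe sets below the filter, 64.9% were positive.

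Against hearts before AAC, a comparison in which the genes of other organs had a median of -0.01, the Akt-on hearts were again higher for Cks2, Cdca8, Cdc20 and Ccna2, and also for Cenpa. Of the 35 tested probe sets, 6 rose and 0 fell, against 8.25% of all called higher and 6.77% called lower. With no filter 8 of 88 rose, and 0 fell, against 4.30% and 3.42% of all, and the 8 were probe sets of Rrm2, Cks2, Birc5, Cdc20, Ccnb2, Ube2c and Cdca8. The median difference was 0.31 over the 35 and 0.22 over the 88 (all probe sets 0.01 in both), and 63 of 88 were positive, against 51.7% of all. Both comparisons share the Akt-on hearts, so they are not independent of each other.

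Some of these counts rested on few hearts. The 6 calls against 4 weeks became 3 without 4-week replicate 3 or Akt-on replicate 2. The 6 calls against before AAC became 3 without before-AAC replicate 1 or 2, and 2 without before-AAC replicate 3 or Akt-on replicate 1 or 2. Without the 4 hearts rich in atrial transcripts, an alternative chosen after seeing the data that leaves 1, 2 and 2 hearts and assumes that the lone heart varies like the others, no member was called in any comparison. Calls over all probe sets then fell from 1222, 721 and 3283 to 5, 96 and 309 in the order of the comparisons above. The differences of the 6 probe sets called against 4 weeks then ran from 0.68 (Ccna2 1417911_at, adjusted p = 0.250) to 1.63 (Cdk1, adjusted p = 0.114). Those of the 6 called against before AAC ran from 0.43 (Cdc20, adjusted p = 0.519, with 0.87 over all hearts) to 1.26 (Cks2, adjusted p = 0.0782).

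In 30 of 88 probe sets (24 genes) the 3 Akt-on hearts all lay above the 3 at 4 weeks, or 34.1%, against 12.1% of all probe sets and 22.1% of those of genes of other organs. In 0 all lay below, against 7.77% of all and 0.671% of those of genes of other organs. Against before AAC 23 were higher in the same way (18 genes, or 26.1%, against 14.1% of all and 8.05% of genes of other organs). There 5 were lower, or 5.68%, against 12.4% of all and 10.1% of genes of other organs. In 15 probe sets of 13 genes the Akt-on hearts lay above all 6 others, or 17% of the members against 4.68% of all probe sets and 4.03% of those of genes of other organs. The 13 genes were Cdk1, Ccna2, Ccnb2, Cks2, Aurka, Bub1b, Cdca8, Cenpa, Birc5, Tpx2, Cdc20, Ube2c and Rrm1. In 0 probe sets did the Akt-on hearts lie below all others, against 3.83% of all and 0.671% of those of genes of other organs. The lack of lower probe sets was thus shared with genes of other organs.

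**Figure D3:**
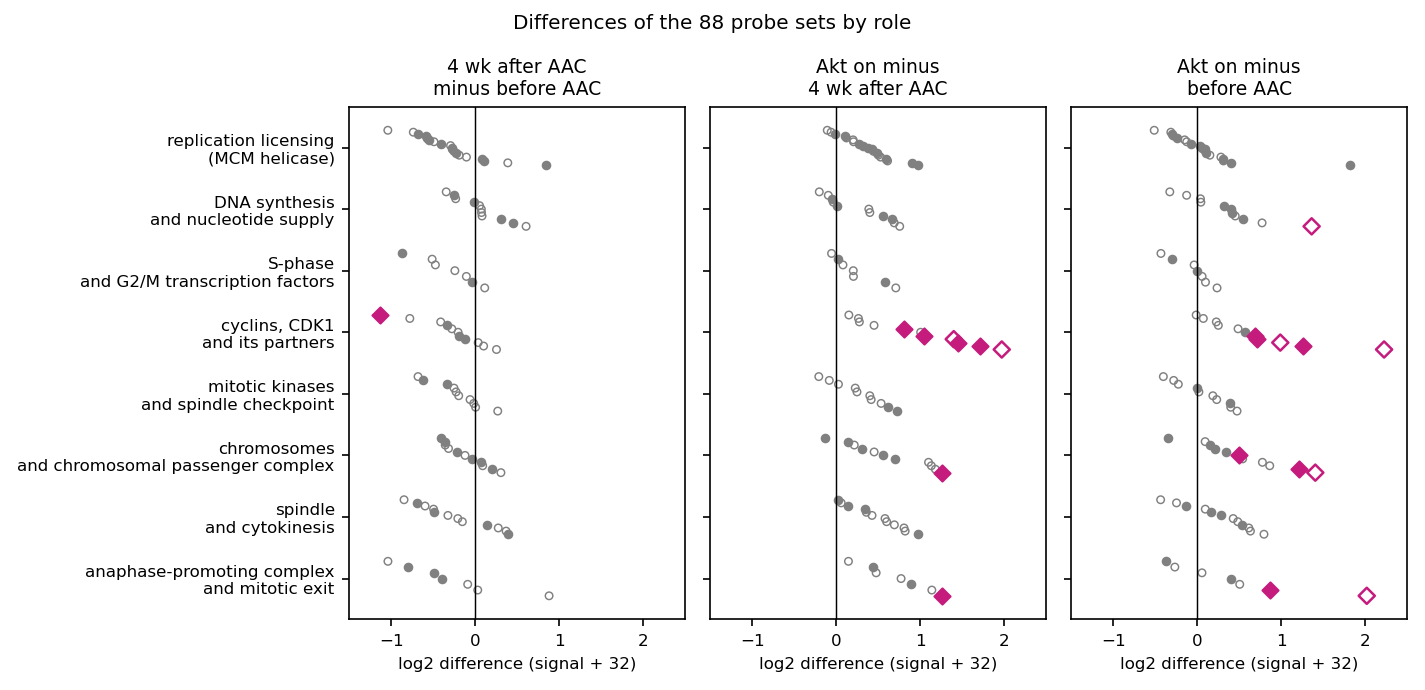
Log2 difference of all 88 probe sets in the 3 comparisons, by role. Filled grey points passed the filter and open grey points lay below it; filled diamonds were called in the filtered fit and open diamonds in the fit with no filter alone. Calls with Akt on lie among cyclins and CDK1, chromosome genes, the anaphase-promoting complex and, for Rrm2, nucleotide supply, and no MCM probe set was called. Whether the roles differ was not tested.

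Of the 6 calls with Akt on against 4 weeks, 4 lay in the cyclins, CDK1 and its partners. There 4 of 4 tested probe sets rose, with Ccna2 counted by both its probe sets, against 1.41% of all probe sets. Against before AAC 3 of these 4 rose, against 8.25% of all. With no filter 5 of 11 and 3 of 11 rose in the 2 comparisons, against 0.565% and 4.30% of all. Cdk1 was at 362, 395 and 253 with Akt on, above every other heart, and the difference from 4 weeks was 1.71 (SE 0.25, adjusted p = 0.00436). Against before AAC it was 0.57 (adjusted p = 0.149), so that only its rise from the 4-week level passed. Ccna2 encodes cyclin A2, which partners CDK2 and CDK1. Its probe set 1417910_at was at 226, 159 and 225 before AAC, 155, 157 and 148 at 4 weeks, and 376, 442 and 261 with Akt on. It rose by 1.05 against 4 weeks (adjusted p = 0.0187) and by 0.72 against before AAC (adjusted p = 0.0340). The other probe set, 1417911_at, was at 157, 157 and 173, then 140, 151 and 147, then 330, 309 and 214. It rose by 0.81 (adjusted p = 0.0376) and 0.68 (adjusted p = 0.0281), and both probe sets thus put the Akt-on hearts highest. These calls rested on few hearts. Against 4 weeks that of 1417910_at ended without 4-week replicate 2 or 3 or Akt-on replicate 2, and that of 1417911_at without any 1 heart other than Akt-on replicate 3. Against before AAC both ended without any 1 heart before AAC or Akt-on replicate 1 or 2 (adjusted p up to 0.125). With no filter, that of 1417910_at against before AAC (adjusted p = 0.0671) and both of 1417911_at (0.0737 and 0.0556) ended. The replicate block ended the same 3 (0.0572, 0.0695 and 0.0502). With only the groups compared, that of 1417910_at against before AAC (0.0545) and that of 1417911_at against 4 weeks (0.0849) ended, and the latter also with quantile scaling (0.0636).

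Cks2 is a small subunit that binds CDK1. Probe set 1417458_s_at was at 127, 138 and 112 before AAC, 107, 96.4 and 113 at 4 weeks, and 332, 404 and 304 with Akt on. The Akt-on hearts all lay above the others, with differences of 1.45 (SE 0.18, adjusted p = 0.00228) and 1.26 (adjusted p = 0.00164). Its means before AAC (126) and at 4 weeks (106) lay under the filter, so it was tested only because of its Akt-on signal (mean 347). With no filter, which does not depend on that signal, the adjusted p were 0.00706 and 0.00426. Both calls held when any single heart was left out (adjusted p up to 0.0123 and 0.0103). The suffixes _s_at and _x_at mark probe sets that can match more than 1 transcript. The second Cks2 probe set, 1417457_at, lay below the filter at 89, 124 and 58.3, then 55.2, 54.5 and 64.2, then 170, 254 and 199. It also separated the Akt-on hearts, and passed with no filter (1.40 and 0.99, adjusted p = 0.0235 and 0.0340), calls that ended without any 1 of the 4-week hearts or Akt-on replicate 2 or 3 (the former) and without before-AAC replicate 1 or 3, 4-week replicate 2 or Akt-on replicate 2 or 3 (the latter; adjusted p up to 0.122). The replicate block also ended the latter (adjusted p = 0.0524).

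Ccnb2, which encodes cyclin B2, showed the widest separation, although it lay below the filter and was named after its values were seen. Its signal was 30.6, 9.3 and 22 before AAC, 34.4, 29.9 and 25.6 at 4 weeks, and 181, 218 and 237 with Akt on. The 6 hearts before AAC and at 4 weeks all lay below the 75th percentile of the genes of other organs and the 3 Akt-on hearts all above it, while no heart exceeded the 95th. With no filter the difference was 1.97 against 4 weeks (SE 0.21, adjusted p = 0.00312) and 2.23 against before AAC (adjusted p = 0.000905). Both calls held without any single heart, with adjusted p up to 0.0209 and 0.00781. Chek1, a checkpoint kinase that holds CDK1 back, had 5 probe sets, all below the filter, and 0 of them was called.

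Among chromosome genes, Cdca8 and Cenpa passed. Cdca8 encodes borealin of the chromosomal passenger complex. Its probe set 1436847_s_at on chip 430B was at 90.1, 87.6 and 100.1 before AAC, 119, 73.1 and 79.9 at 4 weeks, and 278, 339 and 180 with Akt on. All Akt-on hearts were the highest, with differences of 1.26 (SE 0.22, adjusted p = 0.0115) and 1.22 (adjusted p = 0.00487). Leaving out 4-week replicate 3 ended the former call (adjusted p = 0.0507). The second _s_at probe set (1428481_s_at) was at 18.2, 17.6 and 50.7, then 16, 10 and 20.8, then 113, 117 and 25.2, and did not pass with no filter (adjusted p = 0.154 and 0.187). The third, 1428480_at, stayed between 3.6 and 57.9 in all hearts.

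Cenpa encodes the histone variant of centromeres. Probe set 1450842_a_at was at 496, 662 and 558 before AAC, 771, 668 and 545 at 4 weeks, and 801, 823 and 830 with Akt on. The rise over before AAC was 0.50 (adjusted p = 0.0490) and was lost under 12 of 20 alternatives, among them quantile scaling (adjusted p = 0.0561), the replicate block (0.0726) and leaving out before-AAC replicate 1 (0.156). Its other probe set 1444416_at went the other way, from 162, 251 and 172 to 148, 149 and 134 (-0.35, adjusted p = 0.278), so the probe sets of Cenpa disagree.

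Birc5, which encodes survivin, another passenger protein, lay below the filter at 23.7, 17.3 and 76.2 before AAC, 81.8, 35.8 and 40.9 at 4 weeks, and 179, 174 and 95.7 with Akt on. It passed against before AAC with no filter (1.41, adjusted p = 0.0322), a call that ended without before-AAC replicate 1 or 2 or Akt-on replicate 1 or 2 (adjusted p up to 0.112), or with the replicate block (0.0595). Mki67, the Ki-67 antigen used to stain cycling cells, was at 80.6, 84.1 and 128, then 61.7, 73.5 and 68.9, then 222, 303 and 92. Its Akt-on replicate 3 lay within the range before AAC, and neither comparison with Akt on passed (adjusted p = 0.137 and 0.195 with no filter). Top2a, the topoisomerase that untangles sister DNA, had 3 probe sets, 0 of them called. Probe set 1454694_a_at was at 184, 169 and 196, then 122, 118 and 167, then 245, 354 and 155.

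Among genes of mitotic exit, Cdc20 and Ube2c stood highest with Akt on. Cdc20 activates the anaphase-promoting complex. Its probe set 1439377_x_at was at 186, 117 and 139 before AAC, 106, 100.2 and 102 at 4 weeks, and 360, 325 and 209 with Akt on. It rose by 1.26 against 4 weeks (adjusted p = 0.0118) and by 0.87 against before AAC (adjusted p = 0.0231). Its mean over the 6 other hearts also lay under the filter, and with no filter the adjusted p were 0.0290 and 0.0459. Leaving out Akt-on replicate 2 ended both calls (adjusted p = 0.0510 and 0.0796), and before-AAC replicate 2 or 3 or Akt-on replicate 1 ended the second (adjusted p up to 0.0850). Another probe set of Cdc20, 1416664_at, was at 356, 283 and 235, then 191, 140 and 277, then 401, 493 and 303. It separated the Akt-on hearts from those at 4 weeks without passing (0.90, adjusted p = 0.0665).

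Ube2c is the ubiquitin-conjugating enzyme of that complex. It lay just below the filter, at 25.5, 79.9 and 13.6 before AAC, 57.9, 108 and 113 at 4 weeks, and 183, 330 and 219 with Akt on. The Akt-on hearts were the highest, and with no filter the difference from before AAC was 2.02 (SE 0.35, adjusted p = 0.00848), a call that held without any single heart (adjusted p up to 0.0395). Its difference from 4 weeks, 1.14, did not pass (adjusted p = 0.158). Cdca3, which helps the destruction of mitotic inhibitors, had 0 of 3 probe sets called. Its probe set 1448001_x_at was at 241, 233 and 314 before AAC, 108, 180 and 127 at 4 weeks and 231, 135 and 233 with Akt on, with a difference of -0.80 at 4 weeks (adjusted p = 0.0660).

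**Figure D4:**
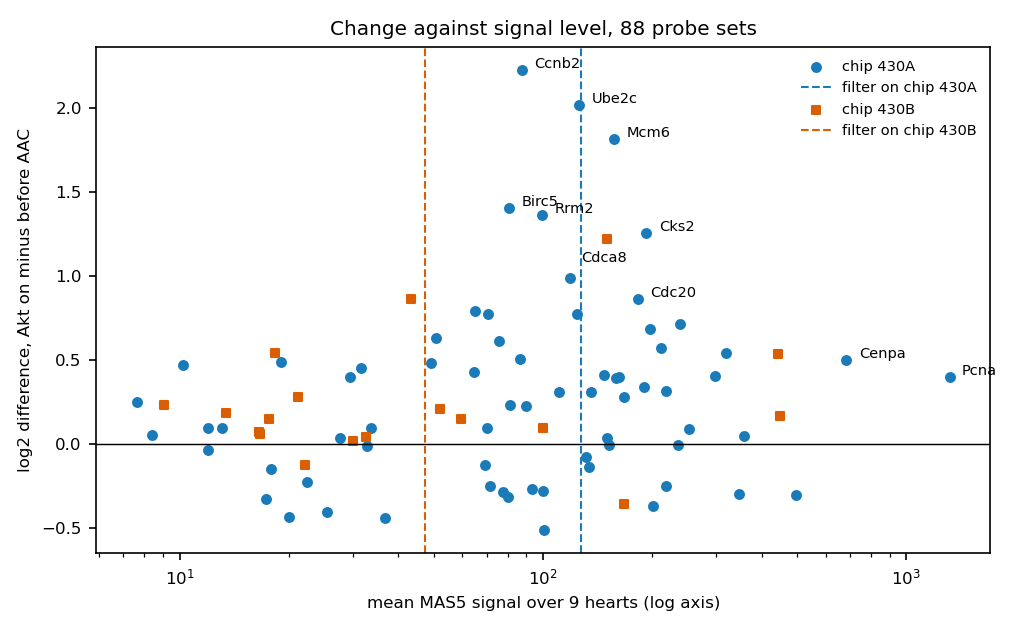
Log2 difference, Akt on minus before AAC, against the mean MAS5 signal over 9 hearts (log axis) for the 88 probe sets; dashed lines are the filter on each chip. Ccnb2 and Ube2c have the largest differences and lie left of the filter line of chip 430A, while Pcna is at 0.40.

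Of the mitotic kinases and checkpoint genes, 0 of 2 tested probe sets and 0 of 10 in all were called. Of all probe sets, 1.41% were called higher against 4 weeks with the filter and 0.565% without it. So few probe sets are not enough to read anything from that 0. Aurka, the spindle pole kinase, was at 162, 146 and 148 before AAC, 101, 110 and 133 at 4 weeks, and 222, 183 and 226 with Akt on. The groups did not overlap in any comparison, but the difference from 4 weeks, 0.73, had an adjusted p of 0.0527. It passed with 1 probe set per gene (adjusted p = 0.0443) and with no variance trend (0.0282). Plk1, a kinase of mitotic entry, was at 201, 221 and 113, then 114, 78.6 and 114, then 125, 216 and 186, with a difference of -0.00305 between Akt on and before AAC (adjusted p = 0.996). Aurkb, the kinase of the passenger complex, had its probe set 1424128_x_at lower with Akt on (88.7, 107 and 109) than before AAC (121, 141 and 129), without passing with no filter (adjusted p = 0.438). Bub1 and Bub1b, of the spindle checkpoint, stayed under 62 in every heart.

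The spindle and cytokinesis genes had 0 of 4 tested probe sets called, again too few to read anything from. Probe sets of 1 gene disagreed. Tpx2 activates Aurora A on the spindle. Probe set 1447518_at on chip 430B was at 505, 323 and 414 before AAC, 414, 479 and 471 at 4 weeks, and 303, 599 and 536 with Akt on, which overlap in all comparisons. Probe set 1428104_at on chip 430A was at 70.3, 57.6 and 58.9, then 50.5, 41.3 and 57.7, then 141, 119 and 82.6. There the Akt-on hearts were the highest, with a difference of 0.62 from before AAC that did not pass with no filter (adjusted p = 0.115). Prc1, which bundles the central spindle, was at 192, 177 and 146, then 77.4, 89.9 and 116, then 274, 333 and 102 in probe set 1423775_s_at (0.97 against 4 weeks, adjusted p = 0.128). Kif11, Kif20a and Nusap1, 2 motor proteins and a spindle protein, had 6 probe sets, 0 of them called.

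No replication gene passed the filtered test, and whether these genes differ from the mitotic ones was not tested. The MCM helicase genes had 19 probe sets, 10 of them past the filter, and 0 was called in any comparison. With 1.41% of all probe sets called higher against 4 weeks, 10 are too few to read anything from that 0. Mcm7 probe set 1438320_s_at was at 578, 555 and 620 before AAC, 467, 380 and 457 at 4 weeks, and 477, 578 and 369 with Akt on. Its 4-week hearts lay lowest against before AAC (-0.41, adjusted p = 0.170). Mcm5, whose promoter with an E2F element is shown above, was at 102, 166 and 152, then 91.6, 59.9 and 94.1, then 256, 176 and 124 (0.90 against 4 weeks, adjusted p = 0.0954). Mcm6, the other gene with an E2F match shown, ranged widely within each group, at 17.7, 134 and 20.9, then 21.4, 135 and 249, then 223, 499 and 109. Its difference from before AAC was the largest past the filter, 1.82 with SE 0.64, and did not pass (adjusted p = 0.0778). Its mean over the hearts of the other groups (57.6 before AAC, 135 at 4 weeks) lay under the filter. It was thus tested only because of its Akt-on signal (mean 277). The same holds for this Mcm5 probe set, with means of 140, 81.9 and 185.

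Pcna, the sliding clamp, was at 1088, 973 and 1133 before AAC, 1356, 1451 and 1584 at 4 weeks, and 1336, 1615 and 1302 with Akt on. All hearts after AAC lay above all hearts before it, but neither difference passed (0.45, adjusted p = 0.0703 at 4 weeks, and 0.40, adjusted p = 0.0639 with Akt on). Rrm1 and Rrm2 are the subunits of ribonucleotide reductase. Rrm1 probe set 1415878_at had differences of 0.30 at 4 weeks and 0.32 with Akt on from the level before AAC, which did not pass (adjusted p = 0.459 and 0.380). Its probe set 1448127_at was at 314, 179 and 347, then 272, 249 and 282, then 414, 428 and 386, and the Akt-on hearts were the highest (0.54 against before AAC, adjusted p = 0.0936). Rrm2 probe set 1416120_at was at 79.4, 39.7 and 20.2, then 68.9, 134 and 55.9, then 178, 211 and 107. It passed against before AAC with no filter (1.36, adjusted p = 0.0374), a call that ended without before-AAC replicate 2 or 3, 4-week replicate 1 or Akt-on replicate 1 or 2 (adjusted p up to 0.135). Tyms, thymidylate synthase, had 4 probe sets between 3.9 and 73.7, 0 of them called.

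The transcription factors of the set were not called, with 0 of 2 tested probe sets, also too few to read anything from. Foxm1, an activator of G2 and mitosis genes, was at 502, 395 and 434 before AAC, 336, 134 and 249 at 4 weeks, and 424, 380 and 273 with Akt on in probe set 1448833_at. The 4-week hearts lay below those before AAC (-0.88, adjusted p = 0.0690), and passed without 4-week replicate 1 (adjusted p = 0.0497). Probe set 1417748_x_at of the same gene differed by -0.03 at 4 weeks, so its probe sets disagree. E2f1, an activator of S-phase genes, had 3 probe sets below the filter, 0 of them called.

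The 3 lists of other cell cycle genes give the surroundings of these values. Of 28 tested probe sets of E2F, RB and DREAM complex genes, 4 rose and 0 fell at 4 weeks, 0 rose and 1 fell with Akt on against 4 weeks, and 4 rose and 2 fell against before AAC. Tfdp1, a partner of the E2F factors, rose at 4 weeks by 0.84 (adjusted p = 0.0176), and Rbbp4, a DREAM subunit, by 1.24 (adjusted p = 0.0369). Both were also higher with Akt on than before AAC, by 0.91 (adjusted p = 0.00430) and 1.32 (adjusted p = 0.0136). E2f3 rose by 0.56 against before AAC (adjusted p = 0.0273). Probe sets of Tfdp2 disagreed with Akt on against before AAC, where 1435344_at fell by 0.86 (adjusted p = 0.00386) and 1437174_at rose by 0.55 (adjusted p = 0.0272). Beside these counts, 3.59% of all probe sets were called higher and 2.00% lower at 4 weeks, 1.41% and 1.89% with Akt on against 4 weeks, and 8.25% and 6.77% against before AAC, so that 2 lower of 28 in the last comparison is near the share of all.

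Of 36 tested probe sets of kinetochore, spindle and cytokinesis genes, 0 rose and 2 fell at 4 weeks, 2 rose and 0 fell with Akt on against 4 weeks, and 0 rose and 2 fell against before AAC, where 6.77% of all fell and 2 of 36 is near that share. Bub3, a checkpoint protein, fell at 4 weeks (-0.91, adjusted p = 0.0148) and stayed lower with Akt on (-0.77 from the level before AAC, adjusted p = 0.00992). Cdca5, which encodes sororin, fell by 0.84 at 4 weeks (adjusted p = 0.0483), and Cenpf, a kinetochore protein, by 0.84 in Akt-on hearts relative to before AAC (adjusted p = 0.0121). Ckap2 and the motor gene Kif4 rose with Akt on against 4 weeks, by 0.92 (adjusted p = 0.0234) and 0.93 (adjusted p = 0.0423). Ckap2 was at 190, 244 and 287 before AAC, 130, 171 and 164 at 4 weeks and 331, 357 and 274 with Akt on, the same order of groups as Cdk1.

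Of 23 tested probe sets of replication fork and origin genes, 1 rose and 0 fell at 4 weeks. With Akt on, 0 was called against 4 weeks, and 3 rose and 1 fell against before AAC. By limma's unadjusted p under 0.05, 4 were higher and 2 lower against 4 weeks, beside 2035 and 2002 of all 21852. The 2 lower are near that share. The 1 that rose of 23 at 4 weeks is near the 3.59% of all. Rpa1, a subunit that coats single-stranded DNA, rose at 4 weeks (0.84, adjusted p = 0.0409) and was higher with Akt on than before AAC (1.30, adjusted p = 0.00280). Its partner Rpa2 (0.76, adjusted p = 0.0423) and the flap nuclease Fen1 (1.29, adjusted p = 0.0347) also rose against before AAC. Gmnn, which encodes the licensing inhibitor geminin, fell by 0.83 (adjusted p = 0.0479).

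Markers of cell types that could divide moved in part with these groups. The summed signal of 10 fibroblast genes was 38985 to 44885 before AAC, 29498 to 47362 at 4 weeks and 48856 to 77298 with Akt on. The Akt-on hearts were the highest, 1.66 times the 4-week mean and 1.46 times the mean before AAC (exact two-sided permutation p = 0.1 for each). A sum is weighted to probe sets of high signal and does not stand for every gene of the list. Against before AAC, 8 of the 20 fibroblast probe sets (5 genes) were called higher and 0 lower, against 8.25% and 6.77% of all. The difference was positive in 16 and negative in 4, beside 51.1% positive of all tested. The endothelial sum went the other way, from 25767 to 27306 through 19477 to 21884 to 16317 to 18524. The sum of 10 macrophage genes overlapped between groups (12891 to 14076, 9333 to 13632 and 11014 to 15672). The T cell marker Cd3e (17.6 to 47.9) and the neutrophil marker S100a8 (42.2 to 103) lay below the 95th percentile of genes of other organs in every heart, and the B cell marker Cd79a was at 113 to 188. The lymphocyte sum overlapped between groups. The neutrophil sum was lower with Akt on (465 to 571) than before AAC (613 to 672) and at 4 weeks (574 to 679; exact two-sided permutation p = 0.1 for each). The heart muscle sum was 403885 to 452909 before AAC, 328370 to 359643 at 4 weeks and 302892 to 363358 with Akt on, so both later groups lay below it, at 0.797 and 0.788 times its mean (exact two-sided permutation p = 0.1 for each). The part of these cells in the differences of the cell cycle genes was not tested.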

How the data were processed

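Affymetrix 430A and 430B arrays of 9 heart samples (18 arrays) were used. Per the labels, RNA was isolated with the Ultraspec-II reagent, and per the submitters' processing notes the values were made with MAS5; its version, target and detection calls are not given in the sources used here. The deposited unit is intensity, the authors' linear MAS5 signal. On each chip the arrays had 1 common trimmed mean (2% off each end; 500.2 on 430A, 122.5 on 430B). For 100 probe sets on both chips the median log2 difference between chips was -0.12 to 0.18 per heart, so both chips were used with the same pseudocount. Gene symbols came from the platform annotation deposited in GEO, which can be old; probe sets with several symbols (936) or none (9160) and 128 controls were left out of the tests.

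Arrays of a chip were scaled to an equal trimmed mean and log2(signal + 32) was taken. Probe sets among the top 60% of their chip by mean signal were kept (21852 with 1 symbol, 12835 genes). Means of the 3 groups were fitted per chip with limma 3.58.1 in R 4.3.3 (eBayes with a variance trend), and p-values were two-sided and adjusted over both chips (Benjamini-Hochberg). The fit was tested on simulated data. The labels do not say that replicate numbers pair the samples, so the main fit used no pairing. Deviations of same-numbered hearts correlated between -0.24 and 0.14, which with 3 hearts per group cannot exclude a pairing. Precision is limited by the 3 arrays per group and chip.

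The members and lists were chosen with earlier results of these data known. Values per heart are given for members past the threshold and for the strongest probe set of each role; from the other lists up to 5 genes past the threshold are named. Other genes given per heart were chosen after their values were seen. Alternatives covered scaling, pseudocount, filter, 1 probe set per gene, variance trend, samples in the fit, the replicate block and single hearts left out.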

Additional observations from a re-analysis of the deposited data

How the results depend on the processing

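Across 20 alternatives, 19 planned and 1 chosen after seeing the data, the median difference of the tested probe sets kept its sign in all 3 comparisons. Against before AAC at 4 weeks, 1 member was called in the main setting, 0 with no filter, with the 40% of probe sets of highest signal, or without the 4 hearts rich in atrial transcripts, and 2 with only the groups compared; without single hearts the count ran from 0 to 2. With Akt on against 4 weeks, the 6 calls became 1 with the 40% filter (where the median was 0.29 over 12 probe sets) and 0 without the atrial-rich hearts, and ran from 3 to 7 without single hearts. With Akt on against before AAC, the 6 calls became 2 with the 40% filter and 0 without the atrial-rich hearts, and ran from 2 to 7 without single hearts. The 40% filter tests fewer members, and the atrial-rich setting fewer hearts. The replicate block gave 1, 5 and 4 calls. All sign changes were in differences near 0 that were not called. At 4 weeks, Ccna2 1417911_at was at 0.00486 and Cdca8 1436847_s_at at 0.0113 with quantile scaling, and Cdca8 ran from -0.20 to 0.0651 without single hearts. Against 4 weeks, Mcm7 1438320_s_at ran from -0.0399 to 0.26 and Pcna from -0.14 to 0.00818 without single hearts. Tpx2 1447518_at at 4 weeks was at -0.0825 without the atrial-rich hearts and ran from -0.00972 to 0.29 without single hearts; with Akt on it ran from -0.16 to 0.30 against 4 weeks and from -0.0107 to 0.45 against before AAC. Signals near those of genes of other organs limit what the low probe sets can show.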
